A study of Drosophila melanogaster with 12 samples.

Results

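The genes described here encode the translation initiation factors of *Drosophila melanogaster*. They were chosen by name alone: every protein-coding gene whose Ensembl symbol starts with eIF followed by a digit, which gave 44 of the 17807 genes in the deposited count table. The table holds RNA from dissected brain lobes of third-instar (L3) larvae of 3 genotypes. Wildtype brains (Oregon_R) are rich in neurons and served as the neuron-biased source. Neuroblast-biased brains (insc_aPKC_CAAX) carried insc-Gal4, a driver active in neuroblasts, and UAS-aPKC-CAAX, a membrane-tethered form of the polarity kinase aPKC, so that neuroblasts (neural stem cells) self-renew in excess and neurons are few. Mettl3 null brains lack the writer of N6-methyladenosine (m6A) on mRNA, and their anti-m6A precipitate gives the antibody's background. No allele or treatment is given as shared by all 3 genotypes. RNA of each genotype was sequenced before (input) and after (meRIP) anti-m6A immunoprecipitation, with 2 libraries in each of the 6 groups, so every group value below is given as its replicates 1 and 2. Since the samples are whole brain lobes, fewer cells of a type and less RNA per cell cannot be told apart.

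Initiation factors bring the ribosome to the start codon. The cap-binding protein eIF4E, the scaffold eIF4G and the RNA helicase eIF4A open the 5′ end of the mRNA; eIF2 carries the initiator tRNA and is recharged with GTP by eIF2B; eIF3, the largest factor, holds the small subunit and its partners together; eIF1, eIF1A and eIF5 control start codon choice, and eIF5B and eIF6 act on joining of the large subunit. In flies several of these genes have second copies known for expression in the testis, among them genes of the eIF4E family, whose relative eIF4EHP binds the cap without binding eIF4G and acts as a translational repressor.

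In flies m6A lies largely in 5′ UTRs, at sites with an AAAC core. The 5′ UTR windows below belong to the 3 members called higher in wildtype than Mettl3 null meRIP (eIF4E1, eIF4EHP and eIF5) and the 2 whose ratio of meRIP to input was called lower (eIF2beta and eIF5B). Each shows the AAAC nearest the start codon, in capitals, on the transcript strand (BDGP6, Ensembl annotation).
eIF4E1: acgcatccaatAAACacggccgccaa
eIF4EHP: tctagtagtgcAAACacccggatcca
eIF5: tgtggagccgaAAACctatcaag
eIF2beta: aactagtattcAAACagcccagacac
eIF5B: gttgcagtcgcAAACgggaag
The eIF4E1 window lies at 3L:9401098-9401123 (minus strand), 12 bases before the start codon. The eIF4EHP window is at 3R:24108609-24108634 (minus strand) and its motif ends 112 bases before the start codon. The eIF5 window is at X:15988830-15988852 (minus strand), with 8 bases between motif and start codon. The eIF2beta window is at 3L:12526605-12526630 (minus strand), with 12 bases. The eIF5B window is at 3L:3460243-3460263 (minus strand), with 6 bases.

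The same letters were common. The motif AAAC, searched on the transcript strand of all annotated 5′ UTRs, was present in 36 of the 44 members (81.8%) and in 6841 of 8748 protein-coding genes tested in meRIP (78.2%). Of 605 protein-coding genes called higher in the ratio of meRIP to input over Mettl3 null in either genotype, 596 had it (98.5%). These 3 sets differed in leader length: the median longest 5′ UTR was 147.5 bases in the members, 211 in all genes tested and 769 in the called genes. Matches were counted as the most in any annotated leader of a gene. The longest leader of eIF4E1 had 761 bases, and its matches numbered 10. Of 817 genes with a longest leader within 20% of that length, 23.4% had at least as many. The 7 matches of eIF4EHP were reached by 19.1% of 1105 genes of like length, and the 15 of eIF5 by 24.5% of 432. The 3 matches of eIF2beta were reached by 13.3% of 1322 genes and the 6 of eIF5B by 55.8% of 955. A match is a string of letters, not a mapped m6A site, and it was found both in members with a high and in members with a low meRIP signal.

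Library totals ran from 4220420 counts (wildtype input replicate 1) to 31352131 (neuroblast-biased meRIP replicate 1). Mettl3 counts stood at 28.2 and 28.1 CPM (counts-per-million, here of the library total) in wildtype input, 17 and 34.1 in neuroblast-biased input and 11.3 and 2.77 in Mettl3 null input; which part of the gene the null lacks was not used here. Neuroblast markers were higher in neuroblast-biased than in wildtype input for 8 of 8 genes, and neuron markers lower for 9 of 9. Salivary gland markers, secreted glue genes that a brain should lack, summed to 211 to 214 CPM in wildtype input, 10.2 to 17.1 in Mettl3 null input and 0 in neuroblast-biased input, where all 8 were at 0. In meRIP they summed to 570 to 650 CPM in wildtype, 25.1 to 42.8 in Mettl3 null and 2.87 to 3.59 in neuroblast-biased brains. Wildtype libraries thus held these transcripts while those of the other genotypes held few or none. Glia markers were lower in neuroblast-biased input for 4 of 6 genes. Fat body markers had a median log2 fold change of −3.63 there, with none of 6 called.

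The initiation factors took 0.887% to 0.899% of all counts in wildtype input, 1.2% to 1.27% in neuroblast-biased input and 0.927% to 0.930% in Mettl3 null input. CPM below are normalised for library size and composition (TMM). Divided by exon length, eIF4A had the highest input level of the 44 genes in every library, at 452 and 446 CPM per kb in wildtype libraries, 861 and 727 for the neuroblast-biased pair and 485 and 575 for the Mettl3 null pair. eIF3b, a scaffold subunit of eIF3, came next by the mean of each genotype, with 213 and 206 in wildtype libraries, 301 and 332 for the neuroblast-biased pair and 209 and 221 for the Mettl3 null pair, and its libraries did not overlap those of eIF4A. In Mettl3 null input it overlapped eIF1 (215 and 106 per kb). Below them the order was close: in wildtype, eIF1 (124 and 153 per kb) overlapped both eIF4H1 (149 and 140) and eIF4E1 (138 and 134), while eIF4H1 lay just above eIF4E1. At the other end among genes expressed, eIF5, the GTPase activator of eIF2, had 8.84 and 6.77 CPM in wildtype input and is annotated with 80.8% of its exons on the same strand as another gene, CG46312, which had no count in any library. On the same strand eIF2gamma shares 16% of its exons with Su(var)3-9, eIF4G2 8.6% with CG33111 and eIF4EHP 7.0% with Syx1A, and how reads there were assigned is not given in the sources used here.

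**Figure D1:**
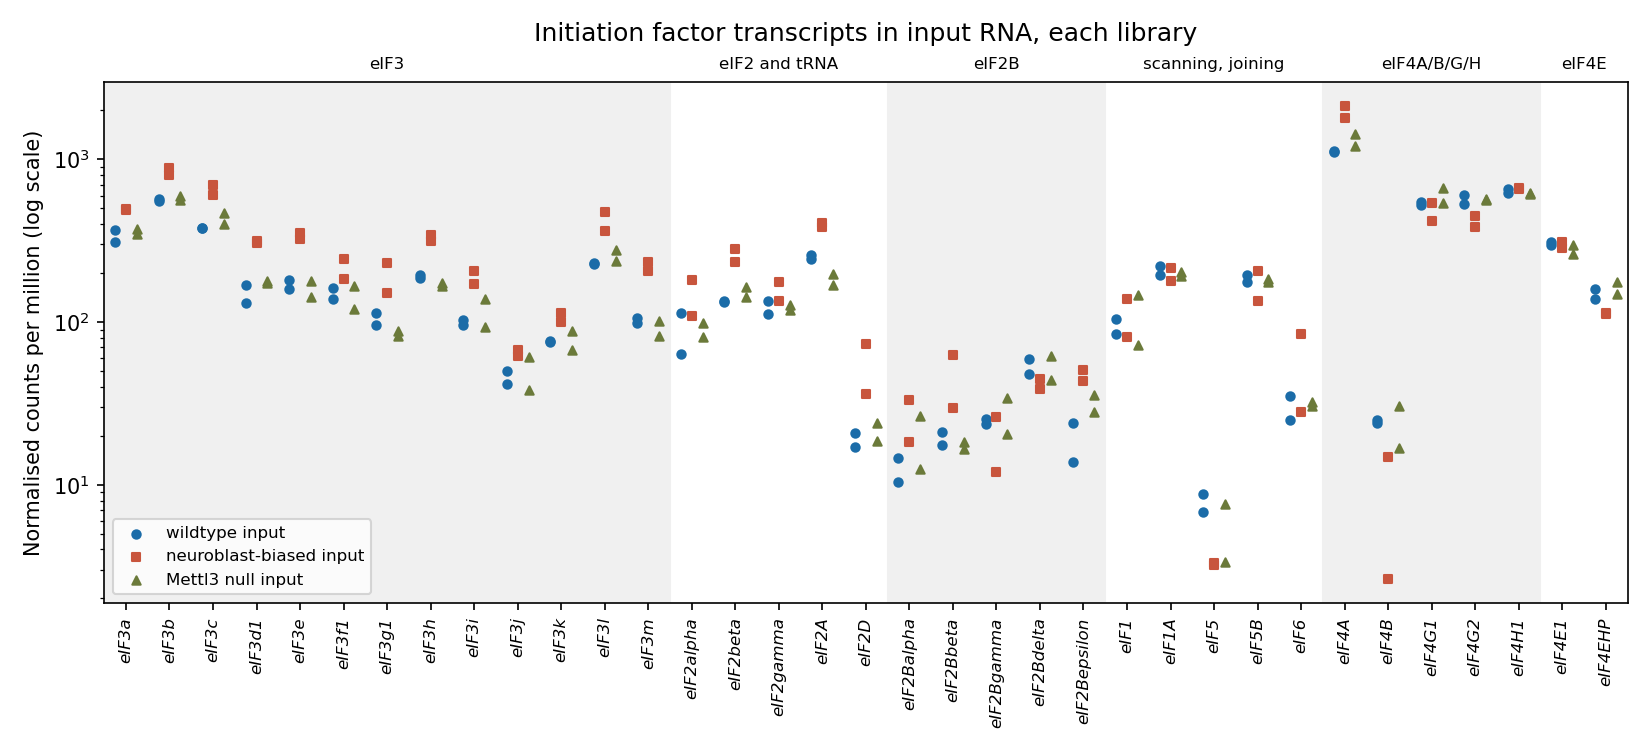
Normalised counts-per-million (log axis) of the 35 initiation factors tested in meRIP, in each input library (circles wildtype, squares neuroblast-biased, triangles Mettl3 null), ordered by role. In the eIF3 block the squares lie above the other symbols for most genes, while those of eIF4G1, eIF4G2 and eIF4EHP do not.

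Apart from eIF4G2, which is described with the scaffolds, the second copies were close to silent. Against 27574 counts over the 12 libraries for eIF3d1, its copy eIF3d2 had 0. The copies eIF3f2 and eIF3g2 had 12 and 1 counts over all libraries, against 30819 for eIF3f1 and 25097 for eIF3g1. eIF4H2 had 1 count against 190952 for eIF4H1, a partner of the eIF4A helicase. In the cap-binding family eIF4E1 had 72564 counts and eIF4EHP 48619, while eIF4E3, eIF4E4, eIF4E5 and eIF4E6 had 9, 3, 4 and 11. eIF4E7 had 98 counts in all and 0 to 29 in a library, with 3.82 and 0 CPM in neuroblast-biased input, 1.5 and 0 in Mettl3 null input and 0 in both wildtype input libraries. That is enough to enter the test of input through these few counts, and no change is read from it. For these genes the transcripts came almost wholly from the first copy, in all 3 genotypes. Markers of the testis summed to 20 to 56.5 CPM in the input libraries, with 3 to 5 of the 6 at 0.

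The first comparison asks which initiation factor transcripts differ in abundance between neuroblast-biased and neuron-biased brains. Of the 36 members with enough counts, 13 rose in neuroblast-biased input (36.1%), against 5.28% of all 9423 genes tested, and 0 fell, against 8.09% of all genes (limma-voom, Benjamini-Hochberg adjusted p under 0.05). Their median log2 fold change was 0.66, with −0.17 over all genes tested. Both neuroblast-biased libraries lay above both wildtype ones for 22 of 36 members and below for 5, against 23.8% and 33.3% of all genes. At an unadjusted p under 0.05 the members numbered 18 of 36, of which eIF4G2 was lower, against 2529 of all 9423 genes tested. The quasi-likelihood test of edgeR also called 13 higher and 0 lower, against 5.02% and 8.72% of all genes. DESeq2 called 18 higher and 1 lower, eIF4G2, against 11.6% and 16% of all genes. Most of the calls came from eIF3: 10 of its 13 main subunits rose, and the log2 fold changes of all 13 lay between 0.52 and 1.13. The count of 13 depended on the wildtype pair and fell without either of its libraries, as did the share of all genes called. Without wildtype input replicate 2 the members' median log2 fold change was 0.69, with −0.21 over all genes. Without wildtype input replicate 1 these were 0.64 and −0.12. Every called member kept its direction. Salivary gland markers moved with this comparison, being lower for 7 of 7 genes tested, and their part was not tested.

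Within eIF3 the largest difference was in eIF3m, a subunit with a PCI domain (2R, 14163066 to 14164825). Its input level was 98.3 and 106 CPM in wildtype libraries, 207 and 233 for the neuroblast-biased pair and 82.2 and 102 for the Mettl3 null pair. Both neuroblast-biased libraries were well above every library of the other genotypes (log2 fold change over wildtype 1.13 ± 0.21 SE, adjusted p = 0.002). eIF3d1, the subunit whose human counterpart can bind the cap itself, had 131 and 170 CPM in wildtype and 307 and 314 in neuroblast-biased input. It rose by 1.04 ± 0.18 on the log2 scale (adjusted p = 0.00118), with both neuroblast-biased libraries far above the wildtype pair, and Mettl3 null input at 178 and 174. eIF3e, another PCI subunit, went from 161 and 182 CPM to 351 and 326 (log2 fold change 0.98 ± 0.18, adjusted p = 0.0018), again without overlap. For eIF3g1, an RNA-binding subunit, the wildtype libraries had 114 and 96.3 CPM and the neuroblast-biased ones 230 and 151, so that the size of its rise (0.87 ± 0.24) differed between replicates although the groups did not overlap. The other called subunits were eIF3i (0.93), eIF3l (0.87), eIF3h (0.84), the core subunits eIF3c (0.84), eIF3b (0.65) and eIF3a (0.54). The 3 that did not pass were eIF3j (0.59 ± 0.34), a loosely bound subunit, eIF3k (0.52 ± 0.25) and eIF3f1 (0.53 ± 0.22, adjusted p = 0.145). eIF3f1 had 139 and 162 CPM in wildtype and 184 and 243 in neuroblast-biased input. For eIF3h, 16.8% of the exons overlap the antisense gene senju, for eIF2Bepsilon 6.3% overlap mip130 and for eIF2beta 5.1% overlap ver; whether counting used strand is not given in the sources used here.

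Among the eIF2 genes, eIF2beta, a subunit of the tRNA carrier, went from 135 and 133 CPM in wildtype to 235 and 283 in neuroblast-biased input (log2 fold change 1.0 ± 0.20, adjusted p = 0.00315), with Mettl3 null at 165 and 142. Neuroblast-biased input was the highest group and overlapped neither of the others. eIF2A, a factor outside the eIF2 complex that can deliver initiator tRNA, also rose (0.67 ± 0.15). eIF2alpha, the subunit whose phosphorylation lowers initiation, had 113 and 64.0 CPM in wildtype and 181 and 109 in neuroblast-biased input; the groups overlapped and the difference of 0.85 ± 0.31 did not pass (adjusted p = 0.093). eIF2gamma, the GTP-binding subunit, stood at 0.38 ± 0.22 and eIF2D, a factor of reinitiation, at 1.48 ± 0.51 (adjusted p = 0.0765). None of the 5 eIF2B genes passed: their log2 fold changes were 0.83 for eIF2Balpha, 1.04 for eIF2Bbeta, −0.30 for eIF2Bgamma, −0.23 for eIF2Bdelta and 1.23 for eIF2Bepsilon, each with an SE of 0.34 to 0.67.

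The cap-binding arm did not follow eIF3, apart from its helicase. eIF4A (2L, 5981764 to 5985909) went from 1121 and 1106 CPM in wildtype to 2136 and 1803 in neuroblast-biased input, with Mettl3 null at 1203 and 1425, and rose by 0.84 ± 0.10 on the log2 scale (adjusted p = 5.93e-05). Its neuroblast-biased libraries were the highest of the 6. The scaffold eIF4G1 had 550 and 526 CPM in wildtype input libraries, 418 and 536 for the neuroblast-biased pair and 668 and 536 for the Mettl3 null pair, with overlapping groups and a log2 fold change over wildtype of −0.11 ± 0.16. eIF4G2, its second scaffold copy, known for a role in male germ cells, was well expressed here, at 605 and 531 CPM in wildtype input libraries, 386 and 448 for the neuroblast-biased pair and 568 and 561 for the Mettl3 null pair. Its neuroblast-biased libraries were the lowest, but the difference missed the threshold (−0.36 ± 0.13, adjusted p = 0.0847). eIF4E1 had 309 and 300 CPM in wildtype input libraries, 287 and 309 for the neuroblast-biased pair and 299 and 260 for the Mettl3 null pair, a log2 fold change of 0.02 ± 0.15. eIF4EHP had 159 and 139 CPM in wildtype input libraries, 114 and 113 for the neuroblast-biased pair and 149 and 176 for the Mettl3 null pair (−0.32 ± 0.21, adjusted p = 0.354). For eIF4H1 the values were 661 and 621 CPM in wildtype input libraries, 666 and 661 for the neuroblast-biased pair and 623 and 612 for the Mettl3 null pair, all within a narrow range. eIF4B, which stimulates eIF4A, had 25.0 and 24.1 CPM in wildtype but 2.63 and 14.8 in neuroblast-biased input, and this spread left −1.64 ± 0.95 uncalled. The remaining factors, eIF1 (0.23), eIF1A (0.00), eIF5 (−1.11 ± 1.28), eIF5B (−0.04) and eIF6 (0.79 ± 0.52), were not called.

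**Figure D2:**
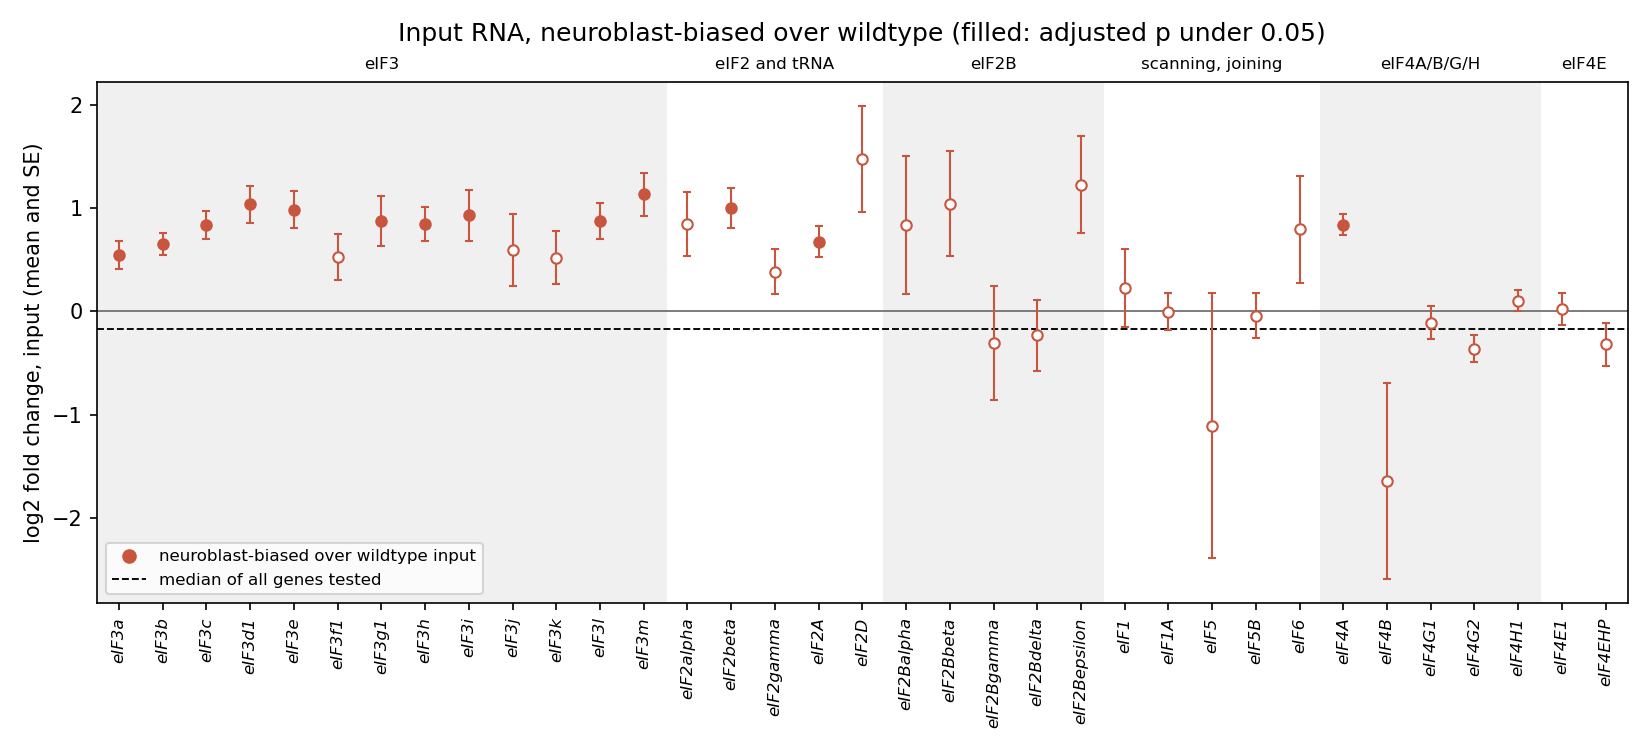
Log2 fold change (mean and SE, 2 libraries a group) of the same 35 initiation factors between neuroblast-biased and wildtype input; filled points have an adjusted p under 0.05 and the dashed line is the median of all genes tested (−0.17). The 10 filled eIF3 points lie between 0.54 and 1.13, and eIF4A is the only filled point of the eIF4 block.

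The same direction was seen among elongation factors and was less clear, by the median, among regulators of initiation. Both lists were drawn up with earlier results of these data known. Of 7 elongation factor genes 5 rose, against 5.28% of all genes tested, with a median of 0.63. They were eEF1alpha1 (1.08), eEF5 (0.88), eEF2 (0.87), eEF1beta (0.63) and eEF1gamma (0.55). The paralogue eEF1alpha2 fell by 1.96. Of 21 regulators tested 6 rose and 0 fell, against 5.28% and 8.09% of all genes tested, with a median of 0.14. They were Thor, the eIF4E-binding repressor 4E-BP (2.64), the eIF2alpha kinase PEK (1.17), the ribosome recycling factor pix (1.10), the S6 kinase S6k (1.0), the mRNA-binding protein larp (0.84) and the poly(A)-binding protein pAbp (0.57). DENR, a reinitiation factor, and Paip2, a partner of pAbp, had the lowest values and were not called (−1.66 ± 0.75 and −1.55 ± 0.70). None of the 4 termination and ribosome rescue genes passed.

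Loss of Mettl3 did not move the input level of any member past the threshold. In Mettl3 null over wildtype input 0 of 36 members were higher and 0 lower, against 0.117% higher and 0.138% lower of all genes tested (limma-voom). The members' median was 0.02. At an unadjusted p under 0.05 there was 1 of 36, against 595 of all 9423 genes. It was eIF2A, with 245 and 258 CPM in wildtype and 197 and 168 in Mettl3 null input (−0.50 ± 0.16, adjusted p = 0.546). edgeR called 0, and DESeq2 called eIF2A alone as lower. For the 13 eIF3 subunits the differences ran from −0.28 to 0.18, and for eIF4A the difference was 0.22 ± 0.10.

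The next comparisons ask which transcripts are recovered by the anti-m6A antibody beyond its background in Mettl3 null brains. Those libraries serve as the control of both, so the 2 sets of values below share their background. Between wildtype and Mettl3 null meRIP 3 of 35 members tested were higher (8.57%), against 16.6% of all 9493 genes, and 5 were lower (14.3%), against 6.11% of all genes. Between neuroblast-biased and Mettl3 null meRIP 16 were higher (45.7%), against 20.6%, and 2 were lower (5.71%), against 18.2%. These folds carry differences in transcript level as well as in recovery. Both neuroblast-biased libraries lay above both Mettl3 null ones for 22 of 35 members and below for 4, against 33.5% and 35.2% of all genes. For wildtype against Mettl3 null the members numbered 3 and 17, against 29.3% and 34.2%.

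The 3 higher in wildtype meRIP were the cap-binding proteins eIF4EHP and eIF4E1 and the GTPase activator eIF5. eIF4EHP (3R, 24063077 to 24108960) had 494 and 619 CPM in wildtype meRIP libraries, 325 and 486 for the neuroblast-biased pair and 289 and 302 for the Mettl3 null pair. Both other genotypes lay above the Mettl3 null pair in both libraries. The difference passed for wildtype (0.97 ± 0.23, adjusted p = 0.00194) but not for neuroblast-biased brains (0.50 ± 0.23, adjusted p = 0.0872). The difference between these genotypes was itself not called (neuroblast-biased over wildtype −0.47 ± 0.23, adjusted p = 0.105). The wildtype call of eIF4EHP was lost with library size alone (limma-voom adjusted p = 0.118) and without wildtype meRIP replicate 2. eIF4E1 (3L, 9399618 to 9402460) had 564 and 636 CPM in wildtype meRIP libraries, 595 and 679 for the neuroblast-biased pair and 432 and 326 for the Mettl3 null pair. It is the only member called higher over Mettl3 null in both genotypes, by 0.74 ± 0.22 (adjusted p = 0.0132) and 0.84 ± 0.23 (adjusted p = 0.00421), while its input level differed little. The wildtype call was lost with library size alone and with no filter (adjusted p up to 0.575), and without wildtype meRIP replicate 1, wildtype meRIP replicate 2 or Mettl3 null meRIP replicate 2 (up to 0.315). The neuroblast-biased call was lost with library size alone and without Mettl3 null meRIP replicate 2. eIF5 (X, 15987008 to 15991974) had 16.7 and 30.3 CPM in wildtype meRIP libraries, 5.57 and 6.34 for the neuroblast-biased pair and 6.88 and 8.81 for the Mettl3 null pair. Only wildtype was high (1.62 ± 0.35, adjusted p = 7.83e-04), and the input counts of eIF5 were low and scattered. On the same strand eIF5 shares 80.8% of its exons with CG46312, and how reads there were assigned is not given.

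The 5 lower in wildtype meRIP were eIF2beta, eIF5B, eIF2Bepsilon, eIF3a and eIF2alpha. eIF2beta (3L, 12525093 to 12526731) had 97.0 and 106 CPM in wildtype meRIP libraries, 355 and 300 for the neuroblast-biased pair and 241 and 347 for the Mettl3 null pair. The wildtype pair stood apart at the low end (−1.47 ± 0.23, adjusted p = 1.21e-05), and the other genotypes overlapped. eIF5B (3L, 3428658 to 3460977) repeated this with 113 and 103 CPM in wildtype meRIP libraries, 271 and 206 for the neuroblast-biased pair and 236 and 341 for the Mettl3 null pair (−1.34 ± 0.23, adjusted p = 5.04e-05), although its input level was alike in wildtype (195 and 176) and Mettl3 null brains (184 and 176). eIF2Bepsilon, the catalytic subunit of eIF2B, had 10.5 and 7.33 CPM in wildtype meRIP libraries, 41.8 and 25.7 for the neuroblast-biased pair and 20.5 and 26.7 for the Mettl3 null pair (−1.27 ± 0.35, adjusted p = 0.00754). Again wildtype was the low group. eIF3a was lower by a log2 difference of −0.80 ± 0.21 and eIF2alpha by −0.70 ± 0.21. eIF2Bdelta lay just outside at −0.62 ± 0.23 (adjusted p = 0.0505) and was called lower under all 10 alternatives that kept every library. Salivary gland markers were higher for 6 of 6 genes tested when wildtype meRIP was set against the null, and neuroblast markers for 4 of 8; their part in these differences was not tested. The size of the lower group depended on scaling. With library size alone, 1 member was higher and 23 lower, against 9.44% and 31.2% of all genes. The median of all genes then moved by −0.58. Under the other alternatives that kept every library 6 to 9 members were lower, against 4.29% to 12.5% of all genes. Without wildtype meRIP replicate 2 fewer members were called in either direction, as over all genes. The median log2 fold change was then −0.13 for the members and −0.02 over all genes.

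Among meRIP libraries of neuroblast-biased brains, the largest difference from the null was that of eIF6, which keeps the large subunit from joining too early. It had 48.5 and 35.9 CPM in wildtype meRIP libraries, 161 and 152 for the neuroblast-biased pair and 62.4 and 43.0 for the Mettl3 null pair (1.63 ± 0.23, adjusted p = 2.04e-06). Both neuroblast-biased libraries were far above every other meRIP library, whereas its neuroblast-biased input libraries differed from each other (28.0 and 84.8 CPM) around a wildtype level of 25.0 and 35. eIF3m, which the study lists among m6A targets, had 254 and 225 CPM in wildtype meRIP libraries, 434 and 520 for the neuroblast-biased pair and 227 and 184 for the Mettl3 null pair. It was higher in neuroblast-biased brains (1.29 ± 0.22, adjusted p = 3.07e-05), as in input, and in wildtype was not called over Mettl3 null (0.29 ± 0.21, adjusted p = 0.352). The study called peaks along transcripts and inspected by eye the candidates without significant counts over Mettl3 null. Counts here cover whole genes, so they cannot decide whether a local peak is present. eIF3h, an MPN-domain subunit, had 401 and 384 CPM in wildtype meRIP libraries, 723 and 808 for the neuroblast-biased pair and 536 and 309 for the Mettl3 null pair (1.0 ± 0.24). The wide Mettl3 null pair still lay below both neuroblast-biased libraries. eIF3i, a WD-repeat subunit, had 59.0 and 57.8 CPM in wildtype meRIP libraries, 145 and 127 for the neuroblast-biased pair and 74.0 and 66.4 for the Mettl3 null pair (1.01 ± 0.21). In all, 9 of 13 eIF3 subunits, 3 of 5 eIF2 genes and 2 of 5 eIF2B genes were higher here, and eIF4B (−0.73) and eIF4G1 (−0.57) were lower. Some of these calls were weak: that of eIF2Bbeta held under 2 of 10 alternatives and 0 of 6 left-out libraries, that of eIF2Bgamma under 3 and 1, and that of eIF3d1 under 2 and 1. eIF4G1 had 520 and 637 CPM in wildtype meRIP libraries, 396 and 467 for the neuroblast-biased pair and 658 and 677 for the Mettl3 null pair, so neuroblast-biased was the low group. Its call was also weak (limma-voom adjusted p = 0.0457). It was lost with the quasi-likelihood test of edgeR, with sample quality weights and without any of several single libraries. Neuroblast markers were higher in this comparison for 8 of 8 genes, neuron markers lower for 8 of 9, glia markers for 4 of 6 and fat body markers for 5 of 6, and their part was not tested. The count of 16 depended on single libraries and fell most without Mettl3 null meRIP replicate 2. Without that library the members' share called higher did not exceed that of all genes. The members' median log2 fold change was then 0.44, with −0.07 over all genes. It was 0.43 without wildtype meRIP replicate 1 and 0.53 without Mettl3 null meRIP replicate 1, with −0.06 and −0.05 over all genes. With library size alone 2 members were higher and 5 lower, against 8.43% and 33.4% of all genes. The median of all genes then moved by −0.54.

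**Figure D3:**
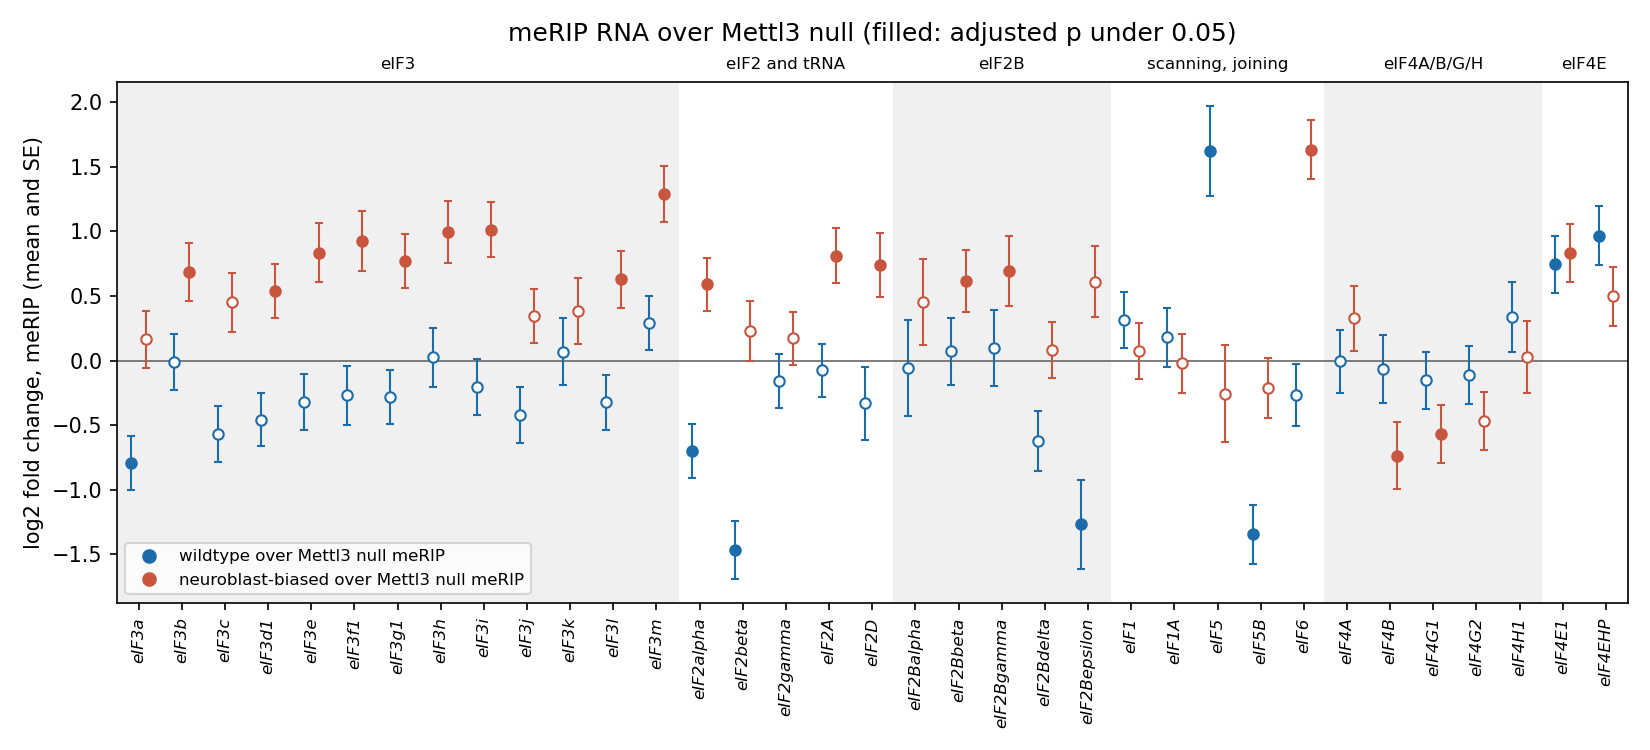
Log2 fold change (mean and SE) of each initiation factor over Mettl3 null meRIP, in wildtype and in neuroblast-biased meRIP; filled points have an adjusted p under 0.05 and both series share the Mettl3 null libraries. eIF4E1 is filled and above 0 in both, while eIF2beta (−1.47) and eIF5B (−1.34) are filled only in wildtype, below 0.

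Compared directly in meRIP, 20 of 35 members were higher in neuroblast-biased than in wildtype brains (57.1%), against 19.7% of all genes, and 2 were lower (5.71%), against 23.8%. The median log2 fold change was 0.76, with 0.01 over all genes. The highest were eIF6 (1.90 ± 0.23, adjusted p = 1.46e-07), eIF2Bepsilon (1.88 ± 0.33), eIF2beta (1.69 ± 0.23) and eIF2alpha (1.29 ± 0.21), whose libraries did not overlap between these genotypes. Lack of overlap was common with 2 libraries a group. Both neuroblast-biased libraries lay above both wildtype ones for 25 of 35 members and below for 6, against 36.3% in each direction over all genes. All 13 eIF3 subunits had positive values, and 12 passed; eIF3k did not (0.31 ± 0.25). Those that passed ran from 0.70 for eIF3b to 1.22 for eIF3i, with eIF3f1 at 1.19, eIF3e at 1.16, eIF3g1 at 1.05, eIF3c at 1.02, eIF3m at 1.0 and eIF3d1 at 0.99. The meRIP levels of eIF3d1 were 89.9 and 99.7 CPM in wildtype libraries, 192 and 183 for the neuroblast-biased pair and 136 and 135 for the Mettl3 null pair. For eIF3f1 they were 142 and 104 CPM in wildtype libraries, 292 and 263 for the neuroblast-biased pair and 194 and 120 for the Mettl3 null pair. In both genes the neuroblast-biased pair was the highest. For eIF3g1 they were 123 and 107 CPM in wildtype, 244 and 230 for the neuroblast-biased pair and 159 and 133 for the Mettl3 null pair, in the same order. Also higher were eIF5B (1.13), eIF2D (1.07), eIF2A (0.89) and eIF2Bdelta (0.70). The 2 lower members were eIF5 (−1.88 ± 0.32, adjusted p = 2.61e-05) and eIF4B (−0.67 ± 0.26, adjusted p = 0.0397). The eIF4B call was lost under 5 of 10 alternatives that kept every library. The scaffold copy eIF4G2 was not called, with 762 and 755 CPM in wildtype, 589 in each neuroblast-biased library and 929 and 793 for the Mettl3 null pair. eIF4H1 was not called either: its meRIP replicates differed widely, at 1355 and 2472 CPM in wildtype, 1283 and 1709 for the neuroblast-biased pair and 1351 and 1686 for the Mettl3 null pair. Salivary gland markers were near 0 in neuroblast-biased meRIP and at 570 to 650 CPM in wildtype. Fat body markers were lower for 5 of 6 genes, glia markers for 5 of 6 and neuron markers for 9 of 9, and neuroblast markers were higher for 7 of 8. The part of these markers was not tested.

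**Figure D4:**
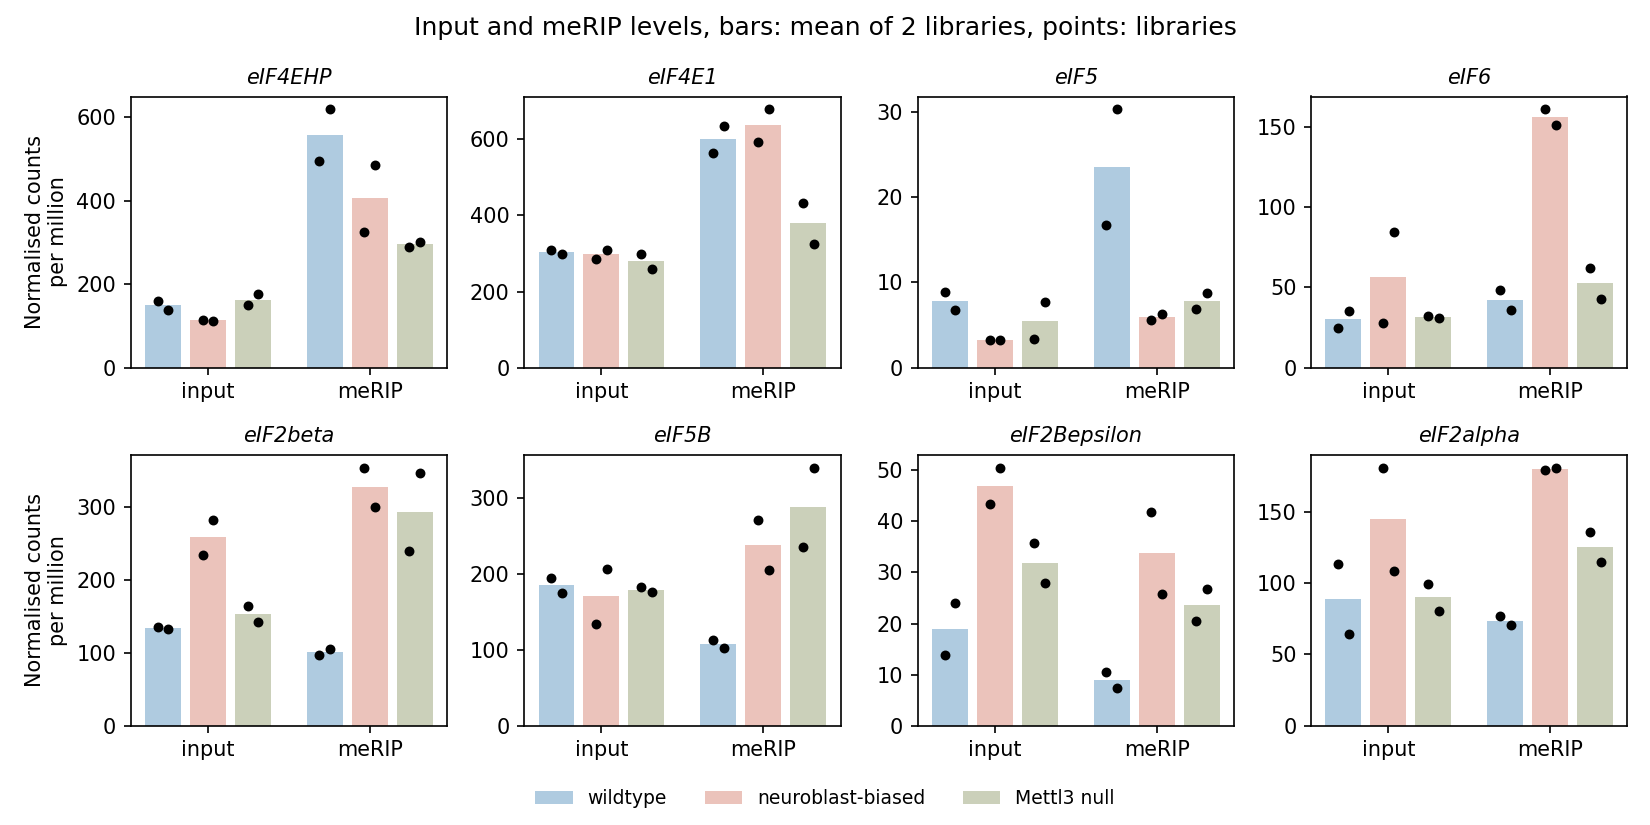
Normalised CPM of 8 members in input and meRIP libraries (bars, mean of 2 libraries; points, libraries; axes start at 0 and differ between genes). eIF4EHP and eIF4E1 have their lowest meRIP bar in Mettl3 null brains, while eIF2beta, eIF5B, eIF2Bepsilon and eIF2alpha have it in wildtype brains.

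To separate recovery from transcript level, each meRIP level was set against the mean input of its genotype. The methods name kallisto for input and featureCounts for meRIP, so a ratio within a genotype may also carry the difference between tools. The ratio was below 1 for 19 of 35 members with wildtype input, 16 of 36 in neuroblast-biased and 11 of 36 in Mettl3 null brains. Over all genes 55.5%, 48.4% and 51.5% were below 1. The median ratio was 0.862 for wildtype, 1.16 for neuroblast-biased and 1.14 for Mettl3 null brains, against 0.905, 1.03 and 0.981 over all genes. eIF4EHP had the highest ratio of any member in wildtype and in neuroblast-biased brains. Its ratios were 3.32 and 4.16 in wildtype libraries, 2.87 and 4.29 for the neuroblast-biased pair and 1.78 and 1.86 for the Mettl3 null pair. Every library of the genotypes with Mettl3 exceeded both that lack it. eIF4E1 had 1.85 and 2.09 in wildtype libraries, 2.0 and 2.28 for the neuroblast-biased pair and 1.54 and 1.17 for the Mettl3 null pair, in the same order and also without overlap. A high ratio was not by itself a difference from the null: eIF3m had 2.49 and 2.20 in wildtype libraries, 1.97 and 2.37 for the neuroblast-biased pair and 2.46 and 2.0 for the Mettl3 null pair, so that the 3 genotypes overlapped. For eIF3h the means were 2.06, 2.33 and 2.48, and for eIF4H1 2.99, 2.25 and 2.46, in the same order of genotypes.

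**Figure D5:**
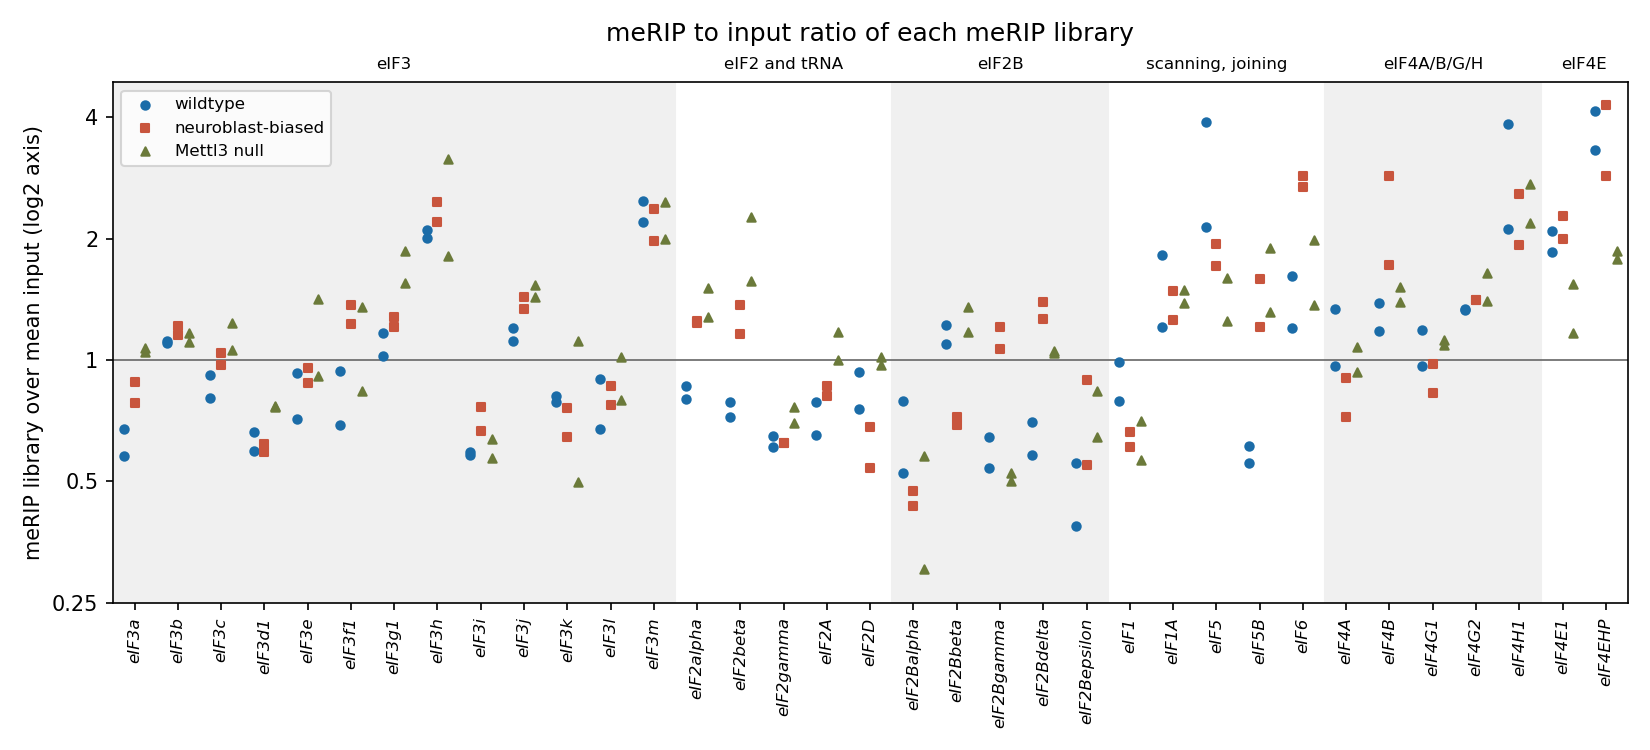
Level in each meRIP library divided by the mean input level of its genotype (log2 axis; line at 1), for the 35 initiation factors tested in meRIP. eIF4EHP reaches 4.16 in wildtype and 4.29 in neuroblast-biased brains against at most 1.86 in Mettl3 null brains; eIF3m overlaps in all 3 genotypes.

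The test of these ratios over the 12 libraries called few members. For the ratio in wildtype against that in Mettl3 null brains, 0 of 36 members were higher, against 5.22% of 9918 genes, and 2 were lower (5.56%), against 0.413%. For neuroblast-biased against Mettl3 null brains, 0 were higher, against 4.46%, and 0 lower, against 0.242%. For the ratio of neuroblast-biased against wildtype brains, 0 were higher and 0 lower, as over all genes (0% and 0%). At an unadjusted p under 0.05 the members numbered 5, 2 and 3 of 36 in these 3 tests, against 1693, 1835 and 674 of all 9918 genes. edgeR called 0 higher in each, and DESeq2 called eIF4EHP higher in the first and in the second. eIF4EHP came closest to the threshold with a log2 difference in ratio of 1.04 ± 0.31 in wildtype (adjusted p = 0.0643) and 0.94 ± 0.31 in neuroblast-biased brains (adjusted p = 0.105). Its adjusted p in wildtype ranged from 0.00607 to 0.213 over 11 alternatives, and it passed in 6 of them. Input and meRIP RNA came from the same brain RNA by the methods, and with a replicate block within genotype eIF4EHP passed in wildtype (1.06, adjusted p = 0.0408), as it did with a replicate block across groups (1.07, adjusted p = 0.0296). For eIF4E1 the differences were 0.53 ± 0.25 (adjusted p = 0.296) and 0.64 ± 0.24 (adjusted p = 0.166).

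The 2 called lower in wildtype were eIF5B, with ratios of 0.613 and 0.554 in wildtype libraries, 1.59 and 1.21 for the neuroblast-biased pair and 1.32 and 1.90 for the Mettl3 null pair, and eIF2beta. Their log2 differences from Mettl3 null were −1.39 ± 0.34 (adjusted p = 0.0237) and −1.30 ± 0.31 (adjusted p = 0.0204). eIF2beta had ratios of 0.722 and 0.786 in wildtype libraries, 1.37 and 1.16 for the neuroblast-biased pair and 1.57 and 2.27 for the Mettl3 null pair. In both genes the wildtype pair was the low group; neuroblast-biased brains overlapped the null for eIF5B and lay below it for eIF2beta. Both calls were lost without any one of wildtype input replicates 1 and 2, wildtype meRIP replicates 1 and 2, Mettl3 null input replicate 2 or Mettl3 null meRIP replicate 2. Between neuroblast-biased and wildtype brains the ratio of eIF5B differed by 1.24 ± 0.34, that of eIF2Bdelta by 0.98 ± 0.38 and that of eIF2beta by 0.75 ± 0.30, each with an adjusted p of 0.692. Salivary gland markers were highest in wildtype in input and meRIP alike, and their part in these ratios was not tested.

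Among regulators of initiation, 3 of 21 were higher and 1 lower in wildtype over Mettl3 null meRIP, shares near those of all genes (16.6% and 6.11%). In neuroblast-biased over Mettl3 null meRIP 7 were higher and 3 lower (20.6% and 18.2% of all genes). PPP1R15, which directs dephosphorylation of eIF2alpha, was higher by 1.64 ± 0.23 in wildtype and 1.35 ± 0.23 in neuroblast-biased meRIP, with an input difference between these genotypes of −0.44 ± 0.51. S6k was higher by 0.91 and 1.96, and Thor by 1.79 and 4.49. DENR was lower by log2 differences of −0.85 and −1.09. No regulator and no elongation or termination factor was called in the tests of the ratio to input (limma-voom).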

How the data were processed

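Input and meRIP RNA of 12 libraries was analysed from the counts per gene that the authors deposited as 1 table. Per the methods, Trimmomatic trimmed the reads; input was processed with kallisto, and meRIP reads were aligned with STAR and counted with featureCounts. Versions and strand settings are not given in the sources used here. Deposited counts were used as whole numbers. Genes were named from the BDGP6 annotation (Ensembl release 115), which held 17710 of the 17807 identifiers. Counts were fitted with limma-voom (limma 3.58.1, edgeR 4.0.16, R 4.3.3) after filterByExpr (minimum count 10) and TMM scaling, with group means, over the 6 input libraries, the 6 meRIP libraries, or all 12 for ratios of meRIP to input. Tests were two-sided, with Benjamini-Hochberg adjustment over all genes tested and a threshold of 0.05. Alternatives tried were DESeq2 1.42.0, the quasi-likelihood test of edgeR, sample quality weights, other scaling and filters, the compared groups alone, a replicate block and leaving out each library. The methods call the 2 libraries of a group biological replicates. No precision is given for a group beyond its 2 values and the SE of the fit.

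The members and gene lists were chosen with earlier results of these data known. Every member is named. Values per library are given, for each comparison, for the 4 called members with the largest change and a mean of at least 10 CPM, for the eIF4E family and members with a paralogue, for eIF3m and for the member with the highest level per exon length; eIF1, eIF2A, eIF2alpha, eIF3b and eIF4B were added after their values were seen. Scripts were tested on simulated counts. AAAC was searched in annotated 5′ UTRs, and 99.51% of 30773 coding starts read ATG in the genome used. Figures were drawn with Python 3.11.15, pandas 2.3.3 and matplotlib 3.10.9.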

Additional observations from a re-analysis of the deposited data

Results flagged for a closer look

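eIF2alpha stood out because its meRIP level differed from Mettl3 null in opposite directions in the other genotypes: it was lower in wildtype (−0.70 ± 0.21, adjusted p = 0.0139) and higher in neuroblast-biased meRIP (0.59 ± 0.21, adjusted p = 0.0256; limma-voom). The difference between these log2 fold changes was 1.29 (adjusted p = 1.27e-05). Its meRIP levels were 76.6 and 70.8 CPM in wildtype libraries, 179 and 181 for the neuroblast-biased pair and 136 and 115 for the Mettl3 null pair, and the 3 pairs did not overlap. Both folds share the Mettl3 null libraries. The neuroblast-biased call was lost with library size alone (0.05), no filter and the compared groups alone, and without wildtype meRIP replicate 1, neuroblast-biased meRIP replicate 1 or either Mettl3 null meRIP replicate. The wildtype call was lost without wildtype meRIP replicate 2 or Mettl3 null meRIP replicate 1. The difference between them was called under all 10 alternatives and all 6 left-out libraries. Input stood at 113 and 64.0 CPM in wildtype and 181 and 109 in neuroblast-biased brains, and the ratio of meRIP to input did not differ past the threshold between these genotypes (0.49 ± 0.38, adjusted p = 0.782). Of its exons, 12.6% overlap the antisense gene rngo.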

How the results depend on the processing

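Of 63 calls of a member in a comparison, 43 held under every alternative other than leaving out a library, 25 held under every left-out library, and 0 changed direction under any alternative. Percentages in brackets are the shares of all genes called in the same direction. In input, 1 member, eIF4G2, was lower in neuroblast-biased brains with DESeq2 (16%), library size alone (9.13%) and the compared groups alone (10.5%). In Mettl3 null input DESeq2 called 1 lower, eIF2A (0.722%). Wildtype over Mettl3 null meRIP gave 1 higher (9.44%) and 23 lower (31.2%) with library size alone, and 9 lower (12.5%) with upper-quartile factors. Neuroblast-biased over Mettl3 null meRIP gave 2 higher with library size alone (8.43%). It gave 10 higher with no filter (10.9%) or the compared groups alone (16.9%). Lower calls there were 1 with edgeR (17%) and quality weights (16.5%). They were 5 with library size alone (33.4%) and 4 with no filter (14.5%). Neuroblast-biased over wildtype meRIP gave 1 lower with edgeR (22.2%), DESeq2 (23%), library size alone (21.8%), upper-quartile factors (21.8%) and no filter (16.6%). The wildtype ratio over Mettl3 null gave 1 higher, eIF4EHP, with DESeq2 (7.89%), quality weights (7.08%), RLE factors (6.41%) and the compared groups alone (9.46%). It gave 4 lower with library size alone (2.4%) and 0 with no filter (0.534%). The neuroblast-biased ratio gave 1 higher with DESeq2 (eIF4EHP, 7.87%) and 1 lower with library size alone (eIF4A, 0.746%). The cause was not tested. Library size alone moved the median of all genes by −0.51 and −0.45 in these ratios, upper-quartile factors by −0.17 in wildtype over Mettl3 null meRIP.

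Leaving out each library gave 3 to 15 higher in neuroblast-biased over wildtype input; 1 to 3 higher and 2 to 7 lower in wildtype over Mettl3 null meRIP; 3 to 16 higher and 1 to 2 lower in neuroblast-biased over Mettl3 null meRIP; 17 to 20 higher and 1 to 2 lower in neuroblast-biased over wildtype meRIP; and 0 to 1 higher in each ratio over Mettl3 null, with 0 to 2 lower in wildtype. The lone library of a group was then assumed to vary like the others. The share of all genes called changed too, so these counts of members alone do not show an excess. For neuroblast-biased over wildtype input without wildtype input replicate 2, the members' median log2 fold change was 0.69, with −0.21 over all genes. For neuroblast-biased over Mettl3 null meRIP without Mettl3 null meRIP replicate 2, it was 0.44, with −0.07 over all genes. Same-numbered libraries did not deviate together (correlations −0.04 to 0.13), so the numbers are not taken to pair them, although input and meRIP share their source RNA. A replicate block gave 4 lower in neuroblast-biased over wildtype meRIP (25.7% of all genes) and 3 lower in neuroblast-biased over Mettl3 null meRIP (20.7%). For the wildtype ratio it gave 1 higher (6.26%), as did the replicate block within genotype (6.15%). With 2 libraries a group, a difference that missed the threshold is not shown to be absent; totals as low as 4220420 counts limit genes of few counts.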
